A study of Morella rubra with 12 samples.

Results

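The net change of the fruit transcriptome between ripe and young fruit was measured in the pale Chinese bayberry strain Baidongkui (BDK, Morella rubra; colour label pink). Ripe fruits at 85 days after flowering (stage 3, 3 libraries) were compared with young fruits at 55 days (stage 1, 3 libraries). The other libraries of the series, 12 in all, are 3 of BDK at 70 days and 3 of Dongkui at 85 days (DK, a red-fruited cultivar whose colour label is black). RNA was extracted with Trizol from flash-frozen fruits. Nothing in the labels ties the libraries of a group to separate trees or fruits. The p-values therefore set a difference only against the spread among libraries of a group, and that spread may be technical. For single genes (limma) it is the spread within all 4 groups of the 12 libraries. The genes described are those with at least 1 FPKM (a gene's fragments relative to its length and the size of the library) in at least 3 of the 6 BDK libraries of 85 and 55 days. They number 19513 of the 119701 genes listed, and 73519 genes were above 0 in at least 1 of the 6 libraries.

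Bayberry is an evergreen tree whose fruit is a drupe, with juicy fleshy segments around a hard stone. During ripening such fruits soften, accumulate sugars, lose organic acids and take up their final colour, while the young fruit is still growing and hardening its stone. Sequencing measures each transcript as a share of a pool. The comparison asks how much of that pool differed between the stages, and at which levels. In bulk samples, fewer cells of a type and less RNA per cell cannot be told apart. The gene IDs are those of a transcript assembly and the files do not pair them with names, so what a gene encodes was not analysed here and the fruit label could not be checked against marker genes.

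The deposited FPKM summed to 882386, 817744 and 862050 in the 85-day libraries and to 1064861, 1032999 and 1219278 in the 55-day libraries. No read counts were used, and relative depth, read from the steps that 1 fragment makes in low values, ran from 0.902 to 1.10 over the 6 libraries. A pair of libraries stood apart. The 55-day replicate 3 listed 34386 genes at 1 FPKM or more, against 22237 and 23886 in the other two, and 10894 of its genes at that level were at 0 in the other 5 libraries. These genes held 11.2% of its summed FPKM, and in each of the other libraries such genes numbered 1614 to 4160. The 85-day replicate 3 listed 1842 genes at 0 that were above 0 in the other 5 libraries, where the other libraries had 382 to 741. Across the 12 libraries, 876 genes were above 0 in every one of a first set (all of BDK at 55 days, replicate 1 of BDK at 70 days and replicates 1 and 2 of BDK at 85 days) and at 0 in every other one, and 120 genes had the reverse pattern. The 85-day replicate 3 is thus the one library of this comparison outside the first set, and calls are also given without it and without both libraries.

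Most of the genes that passed the filter differed between ripe and young fruit. Among these 19513 genes, 12927 (66.2%) had an adjusted p below 0.05 in limma and are named called here. With no filter, 16.6% of the 73519 genes were called. At 85 days 5972 of the 12927 (30.6% of those tested) were higher and 6955 (35.6%) lower. This order depended on the genes admitted. Among the 14020 genes of at least 1 FPKM in all 6 libraries, 5279 were called higher and 4438 lower. Fold changes were fitted to log2(FPKM + 1), where those of low genes come out too small. At least 2-fold, 2485 genes (12.7%) were higher and 3889 (19.9%) lower. Lower genes outnumbered higher ones by more among the larger changes. The counts were 325 higher against 720 lower genes at 8-fold or more, 146 against 309 at 16-fold or more and 23 against 60 at 64-fold or more.

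The scaled values of the 3 ripe and the 3 young libraries did not overlap for 13391 genes (68.6%), with the ripe libraries above for 6191 (31.7%) and below for 7200 (36.9%). The split between directions depended on the scaling: 46.2% of the called genes were higher with trimmed-mean factors and 33.0% with FPKM as deposited, where 4313 genes were higher and 8738 lower. The median log2 change of all genes was -0.11 with the factors and -0.34 without them. Leaving out both libraries that stood apart, among 21035 genes of at least 1 FPKM in at least 2 of the 4 libraries left, 5781 genes were called higher and 6923 lower. With a filter of 5 FPKM in place of 1, which leaves 13508 genes, 5203 were higher and 4920 lower. Without the 85-day replicate 3 alone, which leaves libraries of the first set at both stages, 5698 were higher and 6548 lower.

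Direction followed expression level. The genes were sorted into 7 classes by their mean FPKM over the 6 libraries. Below 3 FPKM, 549 of 4612 genes were called higher and 1721 lower at 85 days, so that 24.2% of the calls were upward. This percentage was 33.7% between 3 and 10 FPKM, 50.6% between 10 and 30, 63.0% between 30 and 100, 69.4% between 100 and 300 and 72.6% between 300 and 1000, beside 46.2% over all genes. Among the 280 genes of 300 to 1000 FPKM, 172 were higher and 65 lower. The 76 genes of at least 1000 FPKM departed from this course, with 31 higher and 30 lower.

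**Figure D1:**
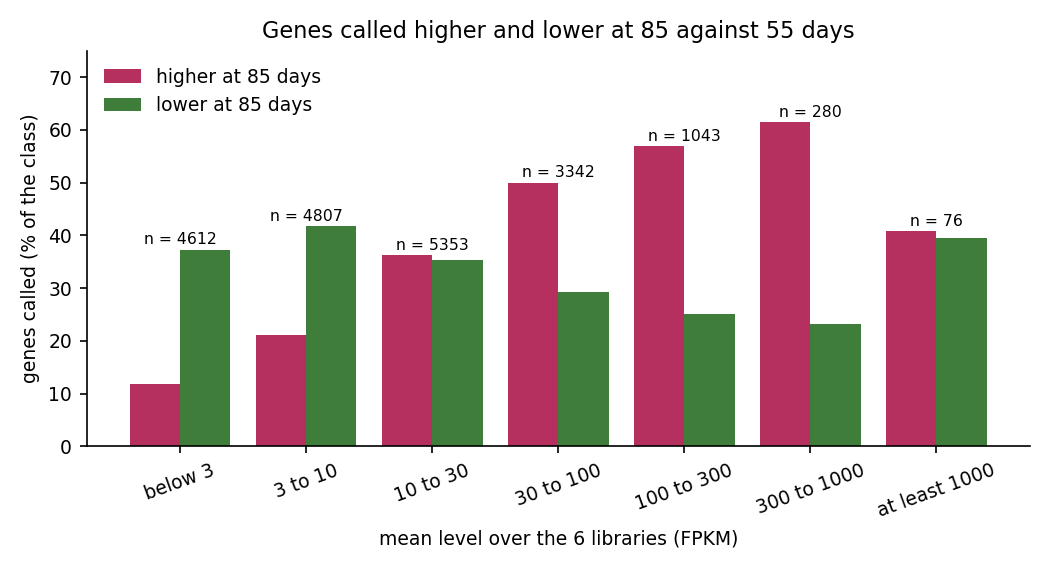
Genes called higher (red bars, left of each pair) and lower (green bars, right) at 85 days against 55 days, as a percentage of the genes tested in each class of mean FPKM, with the number tested above each pair. Higher calls climb from 11.9% below 3 FPKM to 61.4% between 300 and 1000 FPKM, and both directions are near 40% among the 76 genes of at least 1000 FPKM (40.8% and 39.5%).

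The medians of the fitted changes showed the same course. Relative to the median of all genes, the median log2 change was -0.32 below 3 FPKM, -0.18 between 3 and 10, 0.12 between 10 and 30, 0.37 between 30 and 100, 0.53 between 100 and 300, 0.83 between 300 and 1000 and 0.22 at 1000 FPKM and above. With FPKM as deposited, these relative values were -0.24, -0.18, 0.085, 0.33, 0.48, 0.79 and 0.17 in the same order. Before the median of all genes is taken off, the classes of 10 to 30, 30 to 100 and at least 1000 FPKM were at 0.010, 0.27 and 0.12 with the factors and turned negative without them, at -0.25, -0.007 and -0.17. The median of the highest class was also negative without the 85-day replicate 3, at -0.081, and without both libraries that stood apart, at -0.054. Over the 1399 genes of at least 100 FPKM the median change was 0.46, and each single library set against the mean of the other stage gave between 0.38 and 0.54. With FPKM as deposited the median was 0.18. Over the 9419 genes below 10 FPKM it was -0.36, with single libraries between -0.47 and -0.28. It was -0.54 with FPKM as deposited and -0.19 without a filter.

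The proportion of genes called was 49.2% below 3 FPKM, 84.6% between 300 and 1000 FPKM and 80.3% above. The median SD between libraries of a stage, on the log2 scale, was 0.26 at both 85 and 55 days below 3 FPKM and 0.14 at 85 and 0.11 at 55 days between 30 and 100 FPKM. It was 0.15 at both stages between 300 and 1000 FPKM, and 0.26 at 85 and 0.19 at 55 days at 1000 FPKM and above. Over the classes below 100 FPKM the spread fell from class to class while the proportion called rose from 49.2% to 79.3%. From 100 FPKM upward the spread did not fall further. Whether the spread set the proportion called was not tested. Part of the calls among low genes was set by the rule for inclusion. A total of 368 genes (1.89% of those tested) had at least 1 FPKM in all 3 ripe libraries and in no young one, and 1810 (9.28%) had it in all 3 young libraries and in no ripe one. Such genes entered only through the stage where they were high, and the median of their mean levels was low, at 1.77 FPKM for those of ripe fruit and 1.60 for those of young fruit. Of the 368 genes, 363 were called higher, and of the 1810 genes, 1732 were called lower. With no filter, 613 of 53236 genes below 3 FPKM were called higher and 2117 lower. Dropping the filter keeps the genes of 1 stage only, so this count does not show the direction of low genes apart from them. The calls by level include these genes, and calls by level without them are not given here.

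How large the changes were by level depended on how levels were taken. With the arithmetic mean of the stages, the median absolute log2 change stayed between 0.60 and 0.70 in the 4 classes below 100 FPKM, then was 0.87 between 100 and 300, 1.22 between 300 and 1000 and 2.42 at 1000 FPKM and above. With the geometric mean it was 0.75, 0.92 and 1.19 in these 3 classes. With a pseudocount of 0.1 in place of 1, it was 1.35 below 3 FPKM. At least 2-fold changes were called for 29.6% of the genes between 10 and 30 FPKM and for 68.4% of those of at least 1000 FPKM, beside 32.7% over all genes. At least 8-fold changes were called for 6.63% and 32.9% of these classes, beside 5.36% over all genes. The geometric mean gave 5.41% and 13.2%, and the pseudocount of 0.1 gave 16.3% below 3 FPKM, where a pseudocount of 1 gave 0. Among the 76 genes of at least 1000 FPKM, 9 were at least 8-fold higher and 16 at least 8-fold lower, and the scaled values of the stages overlapped for 12. An arithmetic mean reaches this class also through 1 stage alone: by the geometric mean the class held 53 genes, of which 0 were at least 8-fold higher and 7 at least 8-fold lower.

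**Figure D2:**
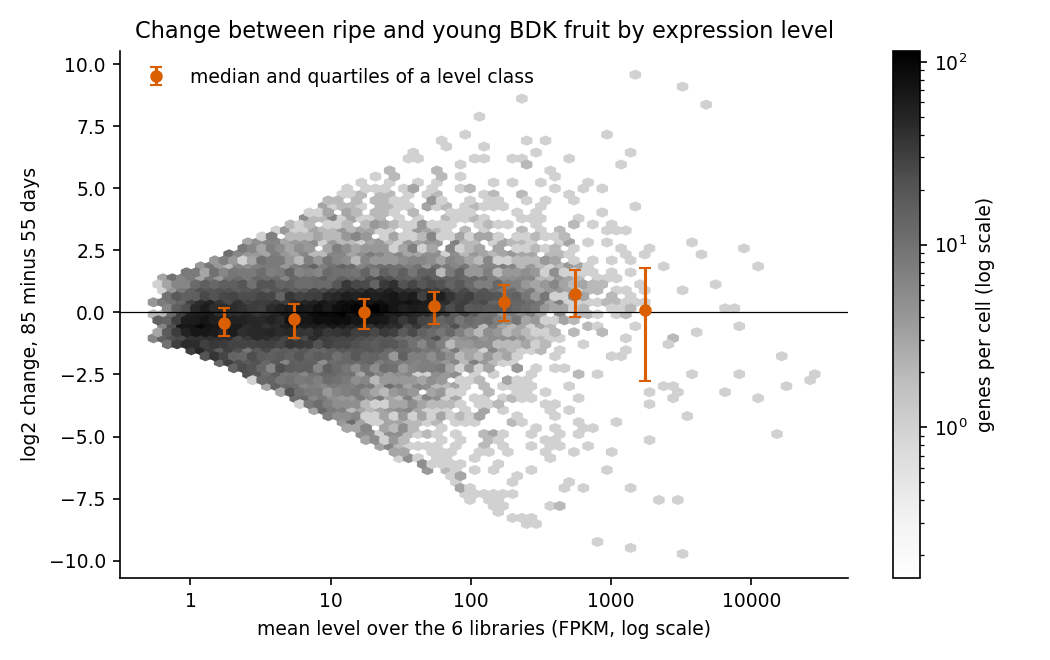
Fitted log2 change (85 minus 55 days, log2(FPKM + 1) scale) of each of the 19513 genes against its mean FPKM over the 6 libraries (log scale), drawn as cells shaded by the number of genes, with the median and quartiles of each level class in orange. The medians climb from -0.43 below 3 FPKM to 0.73 between 300 and 1000 FPKM, and the quartiles of the highest class run from -2.76 to 1.80.

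The part of the pool that differs between 2 profiles was taken as the sum, over the genes that gain, of the difference in their shares of the summed FPKM. That part was 47.9% between the means of ripe and young fruit. Single libraries of the 2 stages differed by 46.6% to 51.6% over the 9 pairs, against 13.5% to 16.8% within the 85-day libraries and 9.90% to 19.9% within the 55-day libraries. The ranges between and within stages did not overlap. Over the genes tested alone the difference was 44.8%, and without the 17 genes among the 10 most abundant of either stage it was 42.7%. For these 2 values the shares were taken anew over the genes kept. They therefore do not give the part contributed by the genes left out.

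The largest losses were concentrated in fewer genes than the largest gains. Of the 41502 genes that held a smaller share in ripe fruit, 27 held 50% of the loss, and the 8 that lost most held 36.6% of it, or 17.5 percentage points of the pool. Of the gain, spread over 32017 genes, 50% was held by 273, and the 8 that gained most held 14.2%, or 6.80 points. The 100 genes with the largest loss held 60.5% of it, while the 100 with the largest gain held 36.2%. Further down the order turned, and 90% of the gain was held by 4838 genes and 90% of the loss by 5461. Tested genes made up 88.6% of the gain and 86.5% of the loss.

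By level, the top class held less of the pool in ripe fruit and the classes just below it held more. Genes of at least 1000 FPKM over both stages held 22.7% ± 1.17 of the summed FPKM at 85 days and 35.8% ± 1.11 at 55 days (SD, n = 3 each). The 300 to 1000 FPKM class held 17.2% ± 0.42 at 85 days and 11.3% ± 1.05 at 55 days, and the 100 to 300 FPKM class 20.8% ± 0.91 and 15.5% ± 1.12. The 30 to 100 FPKM class held 19.96% ± 1.02 at 85 days and 16.6% ± 1.35 at 55 days. The 3 classes below 30 FPKM differed by -0.43 to 0.36 points, 85 minus 55 days.

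Levels within each library were also counted. The summed FPKM was lower in ripe fruit, so a fixed FPKM is a larger share of the pool there than in young fruit. Genes at 1000 FPKM or more in a library were about as many at both stages, 72 to 84 at 85 days and 72 to 78 at 55 days, but they held 25.5% ± 2.18 of the summed FPKM in ripe fruit and 37.3% ± 1.63 in young fruit. The genes of 100 to 1000 FPKM held 37.8% ± 2.19 in ripe fruit and 27.0% ± 1.18 in young fruit, again with similar numbers of genes, 1305 ± 19.9 and 1332 ± 74.1 (SD, n = 3 each). For both shares the 6 libraries did not overlap between stages, which gives the smallest p an exact two-sided permutation test of 3 against 3 allows, 0.1. The genes of 10 to 100 FPKM held 31.1% ± 0.95 and 30.2% ± 1.58, which did not differ beyond their spread (exact permutation test, p = 0.6). Their number was 8195 to 9121 in the ripe and 9720 to 12880 in the young libraries, without overlap (exact permutation test, p = 0.1).

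The first genes of the list held less of the pool in ripe than in young fruit. The most abundant gene of each library held 2.10%, 1.72% and 2.00% of the summed FPKM at 85 days and 4.81%, 4.38% and 4.34% at 55 days. The first 10 genes together held 10.6% ± 1.16 at 85 days and 22.6% ± 1.41 at 55 days (SD, n = 3 each). To reach 50% of the summed FPKM took 602, 635 and 543 genes in the ripe libraries and 306, 385 and 503 genes in the young libraries, without overlap (exact permutation test, p = 0.1, the smallest possible). The stages converged further down the list: the first 1000 genes held 58.1% ± 1.21 in ripe fruit and 60.2% ± 2.91 in young fruit (exact permutation test, p = 0.4).

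**Figure D3:**
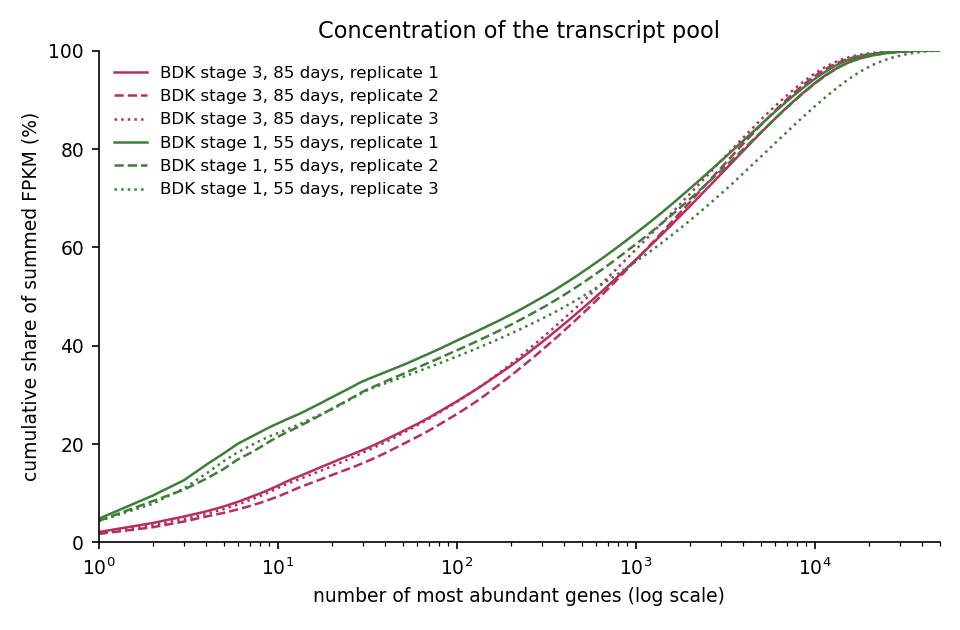
Cumulative share of the summed FPKM (%) held by the most abundant genes of each library, against the number of genes counted (log scale), for the 3 libraries of 85 days (red) and the 3 of 55 days (green). The ripe libraries run below the young ones over the first 100 genes, with 26.1% to 28.7% at that point against 37.8% to 41.0% in the young libraries, and the ranges overlap at 1000 genes.

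The order of the stages in this count rested on the leading genes. Without the 17 genes among the 10 most abundant of either stage, the order turned round, and 50% of the remaining FPKM was reached with 880 ± 63.1 genes in ripe fruit and 1190 ± 286 in young fruit (SD, n = 3 each; exact permutation test, p = 0.1). The 3 ripe libraries then needed between 812 and 937 genes and the 3 young libraries between 982 and 1516, the highest young value being that of replicate 3, the library with many genes of its own.

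Of the 10 most abundant genes of young fruit, the first 8 were called lower in ripe fruit and the other 2 were not called, where 35.6% of all genes were called lower. These 10 genes were chosen by their level in the young libraries, which favours lower calls, so the comparison with all genes is no test. The 10 genes held 4.85% ± 0.61 of the summed FPKM in ripe fruit and 22.5% ± 1.40 in young fruit (SD, n = 3 each). The first 8 are described together because of their calls, so the number follows the outcome and is no test. They held 3.61%, 2.99% and 3.32% of the summed FPKM in the ripe libraries and 22.4%, 19.3% and 20.7% in the young libraries. Their ratios of mean FPKM, young over ripe, were between 4.05 and 34.9. None left the 100 most abundant genes of ripe fruit, and their ranks there ran from 5 to 96. In the other fruits of the series these 8 genes held 9.89% ± 0.76 in BDK at 70 days and 3.31% ± 0.35 in DK at 85 days (SD, n = 3 each). Those libraries entered the limma fit behind the calls through the factors and the shared spread.

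Gene c116193_g1, the most abundant of young fruit, had 7024, 5393 and 9198 FPKM in the ripe libraries and 50071, 45240 and 52942 FPKM in the young libraries. The groups were far apart, and the gene was still the fifth most abundant in ripe fruit. Its fitted log2 change was -2.53 ± 0.31 (SE; limma, adjusted p = 2.98e-05). It lay at 30318 ± 2209 FPKM in BDK at 70 days and 6533 ± 77 in DK (SD, n = 3 each).

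Gene c35045_g1, the second of young fruit, had 8713, 5051 and 3622 FPKM in the ripe libraries and 51177, 41514 and 38354 FPKM in the young libraries, again without overlap although the ripe libraries varied among themselves. Its log2 change was -2.72 ± 0.43 (SE; limma, adjusted p = 0.00021). At 70 days it averaged 11786 ± 2696 FPKM and in DK 6806 ± 3387 (SD, n = 3 each).

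The gains in mean FPKM were led by c53878_g1, with 18566, 9583 and 13048 FPKM in the ripe libraries and 2274, 1712 and 4799 FPKM in the young libraries. All ripe libraries were above all young ones, by a log2 change of 2.60 ± 0.47 (SE; limma, adjusted p = 0.00054). Its mean at 70 days was 28796 ± 11525 FPKM, and in DK it averaged 7469 ± 778 (SD, n = 3 each). It shares its assembly cluster with other genes, 8 tested in all, among which reads may have been divided, so its own level is uncertain.

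Gene c42860_g1 was the most abundant of ripe fruit and the fifteenth of young fruit. It had 16288, 14090 and 17259 FPKM in the ripe libraries and 5171, 5906 and 5990 FPKM in the young libraries, a narrow spread on both sides. Its log2 change was 1.76 ± 0.26 (SE; limma, adjusted p = 0.00012), and at 70 days it stood at 21726 ± 1603 FPKM and in DK at 17009 ± 1789 (SD, n = 3 each). Its cluster holds 2 tested genes.

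The leading transcripts of ripe fruit had stood at widely different ranks in young fruit. Of the 10 most abundant genes at 85 days, 5 were called higher, 2 lower and 3 neither, near the 66.2% called over all genes, and 3 were also among the first 10 at 55 days. The third had 11717, 8417 and 10543 FPKM in the ripe libraries and ranked 3618 in young fruit, at 41.7 ± 26.8 FPKM (SD, n = 3). The gene of rank 10, at 6382 ± 741 FPKM in ripe fruit, ranked 9641 in young fruit, at 14.4 ± 6.87 FPKM, and the eighteenth, at 2973 ± 1132 FPKM, ranked 16412, at 1.55, 1.13 and 14.4 FPKM in the 3 young libraries.

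The reverse was also seen. The eleventh most abundant gene of young fruit ranked 13594 in ripe fruit, at 5.27 ± 0.18 FPKM, against 6707 ± 2414 FPKM in young fruit, and the sixteenth ranked 5022, at 25.4 ± 10.98 FPKM against 5687 ± 834 (SD, n = 3 each). Others held their place. The sixth gene of ripe fruit was of rank 10 in young fruit, at 7184 ± 2134 FPKM in ripe and 7358 ± 2587 in young fruit. The eighth was of rank 14, at 6546 ± 1191 FPKM in ripe and 6416 ± 1439 in young fruit (SD, n = 3 each). Neither was called (limma, adjusted p = 0.51 and 0.28), which does not show that their levels were equal. Both were higher in BDK at 70 days, with means of 14066 and 13227 FPKM in the same order. The seventh gene of ripe fruit, with an adjusted p of 0.051 in limma, had 11101 FPKM in 1 ripe library and 4439 and 5091 in the other 2. As deposited these values overlapped with the young libraries at 1747 to 4758, but the scaled values used in limma did not overlap.

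**Figure D4:**
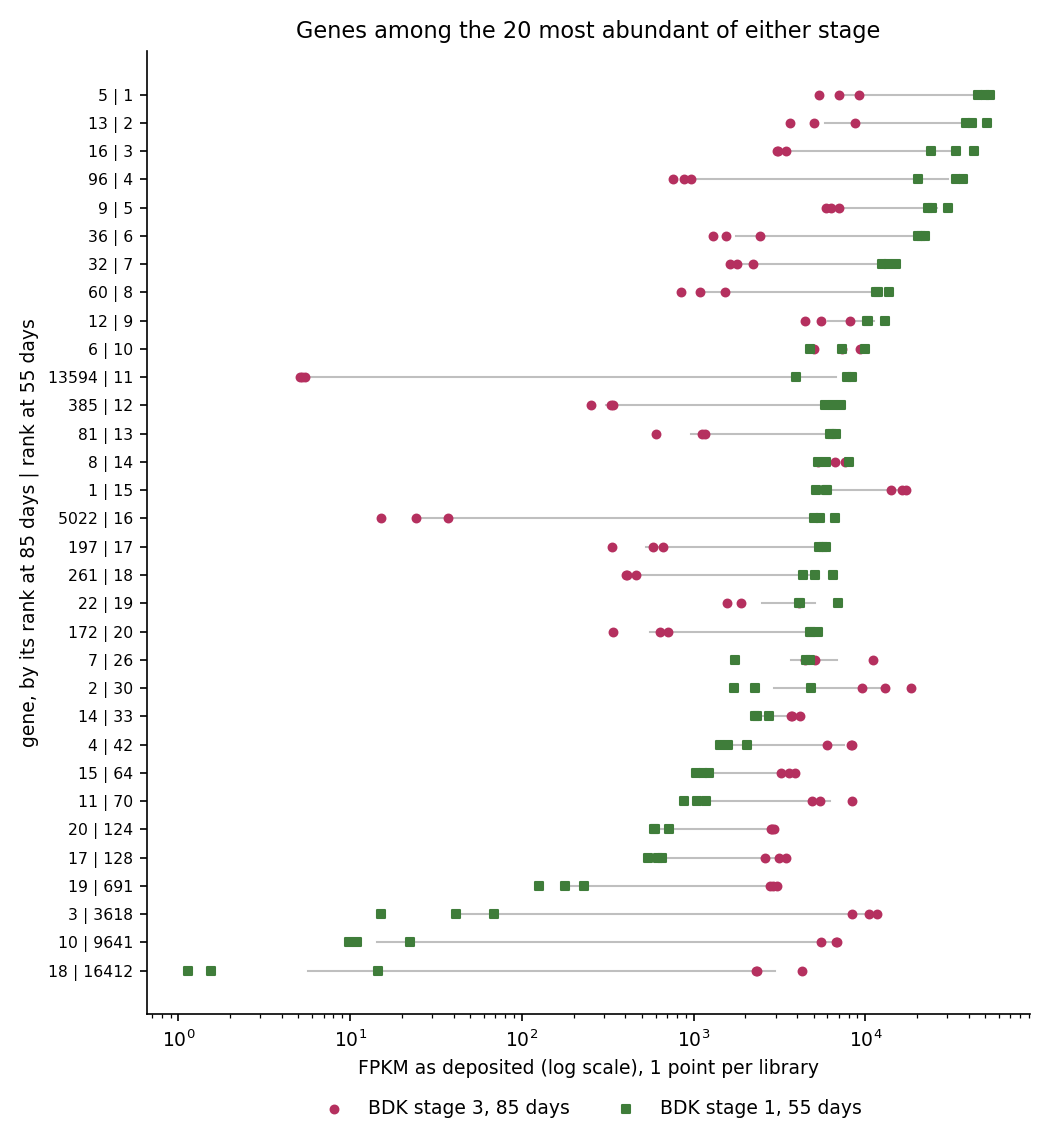
FPKM as deposited (log scale) of the 32 genes among the 20 most abundant of either stage, 1 point per library (red circles, 85 days; green squares, 55 days) with a line between the stage means, labelled by rank at 85 days and rank at 55 days and ordered by rank at 55 days. The first 8 genes of young fruit lie wholly to the left at 85 days, and the genes of rank 3, 10 and 18 in ripe fruit come from below 100 FPKM.

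Over the 100 most abundant genes of each stage, the stages shared 47. Libraries of different stages shared 43 to 46, against 83 to 87 within the 85-day libraries and 83 to 94 within the 55-day libraries. They shared 3 of the first 10 genes, 19 of the first 50, 266 of the first 500 and 613 of the first 1000. Within stages, libraries shared 8 or 9 of the first 10 genes and at least 873 of the first 1000.

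Outside the shared genes, the leaders of each stage lay at all ranks of the other. Of the 100 leading genes of ripe fruit, 29 ranked between 101 and 500 in young fruit, 5 between 501 and 1000, 14 between 1001 and 5000 and 5 lower. Of the 100 leading genes of young fruit, 18 ranked between 101 and 500 in ripe fruit, 5 between 501 and 1000, 12 between 1001 and 5000 and 18 below that. In young fruit 16 of the ripe leaders were under 100 FPKM and 3 under 10, while in ripe fruit 29 of the young leaders were under 100 and 9 under 10. Among the 3 ripe leaders under 10 were 2 genes at 0 in replicate 1 of ripe fruit, which were not tested. Both also count among the 5 ranked below 5000.

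The 53 genes in the first 100 of ripe fruit only held 10.4% ± 0.66 of the summed FPKM at 85 days and 1.38% ± 0.077 at 55 days. The 53 in the first 100 of young fruit only held 1.26% ± 0.17 at 85 days and 9.67% ± 0.98 at 55 days. The 47 genes common to both lists, which include the 8 that dominated young fruit, held 17.0% ± 1.06 at 85 days and 29.5% ± 1.13 at 55 days (SD, n = 3 each). These sets were chosen on the same libraries, so their shares describe the change and do not test it. Of the 47 common genes, 17 were called higher and 13 lower, a proportion near the 66.2% called over all genes.

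In the libraries that did not enter the choice, BDK fruit of 70 days lay between both stages and DK lay near ripe BDK fruit. The genes leading in ripe fruit only held 5.05% ± 0.095 in BDK at 70 days and 9.96% ± 0.16 in DK at 85 days, and those leading in young fruit only held 3.01% ± 0.29 and 1.49% ± 0.12 (SD, n = 3 each). The common genes held 26.2% ± 1.95 at 70 days and 15.98% ± 0.37 in DK.

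**Figure D5:**
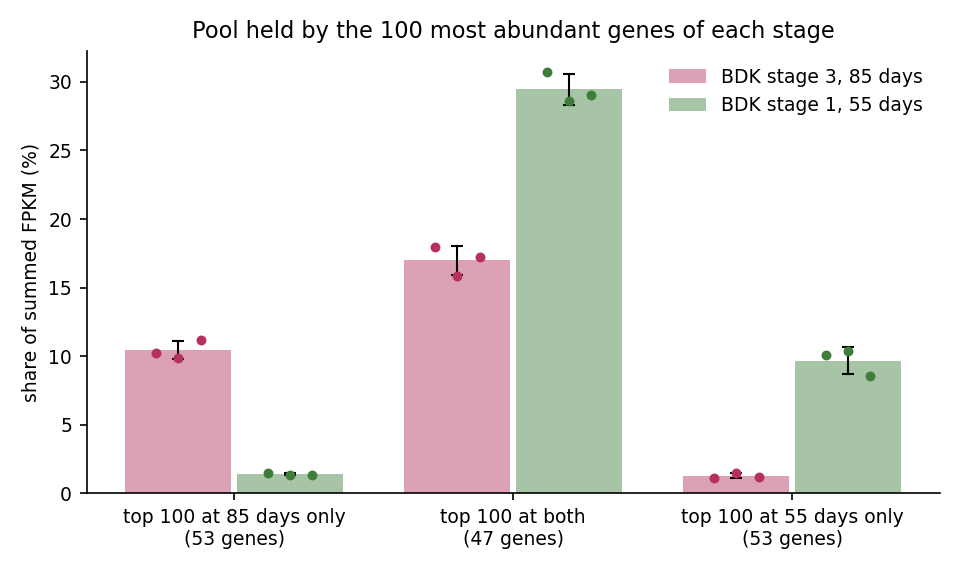
Share of the summed FPKM (%) held by the genes in the 100 most abundant of 85 days only, of both stages and of 55 days only, with bars for the mean, error bars for the SD and a point per library (red, 85 days; green, 55 days; n = 3 each). The 53 genes of ripe fruit only and the 53 of young fruit only hold about 10% of the pool in their own stage and under 2% in the other, and the 47 common genes hold 17.0% at 85 days and 29.5% at 55 days.

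Some genes were listed at 0 throughout a stage. There were 72 genes with at least 1 FPKM in all 3 ripe libraries and 0 in all 3 young ones, and 308 with the reverse pattern. At a level of at least 10 FPKM in all 3 libraries there were 7 genes of ripe fruit and 36 of young fruit, and at 100 FPKM 0 and 3. The counts depended on the libraries that stood apart. Without the 85-day replicate 3 there were 204 genes of ripe fruit and 375 of young fruit, and without the 55-day replicate 3 there were 115 of ripe fruit and 657 of young fruit. In DK, whose libraries played no part in the choice, 212 of the 308 genes of young fruit were at 0 in all 3 libraries and 2 had at least 1 FPKM in all 3. Of the 72 genes of ripe fruit, 9 were at 0 in all 3 DK libraries and 26 had at least 1 FPKM in all 3. All 3 DK libraries lie outside the first set of libraries, and all 3 young libraries lie within it. Stage, strain and library set cannot be told apart in these DK counts. In BDK at 70 days, 117 of the 308 genes were at 0 in all 3 libraries and 9 had at least 1 FPKM in all 3. For the 72 genes both of these counts were 10. Of the 70-day libraries only replicate 1 lies in the first set, so stage and library set are not cleanly separated in the 70-day counts either.

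Together, the called genes accounted for most of the pool. Genes called higher held 60.8%, 62.4% and 63.0% of the summed FPKM in the ripe libraries and 23.1%, 23.3% and 21.2% in the young libraries. Genes called lower held 13.1%, 14.04% and 12.8% in the ripe libraries and 56.8%, 53.8% and 49.1% in the young libraries, the last being the replicate with many genes of its own. The 6586 genes tested and not called held 18.6% ± 0.48 in ripe fruit and 17.2% ± 0.96 in young fruit (SD, n = 3 each). The calls were made on the same libraries, and these shares describe them. At 70 days the genes called higher held 45.4% ± 0.53 and those called lower 25.5% ± 0.87, and in DK 59.8% ± 2.19 and 14.1% ± 0.71 (SD, n = 3 each).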

How the data were processed

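The authors deposited a single column of FPKM for each library, per the file headers. How reads were assembled, aligned and counted is not stated in the labels or headers. Levels, shares and ranks use FPKM as deposited. For tests, trimmed-mean factors (30% of log ratios and 5% of levels trimmed at each end) were applied. Limma 3.58.1 (R 4.3.3) was fitted to log2(FPKM / factor + 1) over all 12 libraries in 4 groups, without covariates and with a variance trend on level. Benjamini-Hochberg adjustment covered all genes tested, and called means an adjusted p below 0.05. Values of 1 number per library were compared by exact permutation tests (scipy 1.17.1). The procedure was tested on simulated data in which fewer genes changed than were called here and low genes were left unchanged. That test does not cover scaling when most genes differ, nor changes of low genes. Total depth is unknown, so no counting interval is given. In any pair of the 6 libraries, 3.49% of tested genes or less had identical deposited values, with no tolerance and shared zeros included.

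Named genes are the 2 with the largest gain and the 2 with the largest loss in mean FPKM, among called genes whose libraries do not overlap. The genes, classes and rules were chosen with earlier results of these data known. Alternatives were other factors, filters and pseudocounts, only the 6 libraries, the replicate number or the library set in the model, and libraries left out. The joint omission of 2 libraries and levels by geometric mean were chosen after seeing the data.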

Additional observations from a re-analysis of the deposited data

How the results depend on the processing

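The counts of genes called, called higher and called lower stayed within 1.5 times their value, and the 4 named genes kept their call and direction, under all 17 other settings run. Leaving out 1 library at a time gave 12114 to 12680 called genes. With the library set as a term 12497 were called, without a filter 12239, with a filter of 5 FPKM 10123 and with the 6 libraries alone 11940. With the 6 libraries alone, the adjusted p of the 4 named genes (limma) ran from 0.00528 to 0.00654. In the main fit over all 12 libraries it ran from 2.98e-05 to 0.00054. No gene called in both changed direction, though 236 called genes had the other sign, uncalled, with FPKM as deposited. FPKM as deposited gave a median log2 change of 0.18 for genes of at least 100 FPKM. Of the pool of the genes kept, 44.8% differed over tested genes and 42.7% without the 17 leading genes. Without these 17, the number of genes holding 50% of the FPKM was lower at 85 days. The difference was -310.3 genes (85 minus 55 days), where all genes gave 195.3. The cause was not tested. The replicate numbers did not pair the libraries: deviations of same-numbered libraries correlated at -0.019, 0.13 and -0.0096, and with the replicate number as a block 12842 genes were called. Changes of low genes depend on the pseudocount: the median below 10 FPKM was -0.53 with 0.1 and -0.16 with 5.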

Other observations

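Genes of 1 assembly cluster, whose IDs share their first part, more often changed in one direction than in both. Of 659 clusters with 2 or more called genes of at least 2-fold change, 178 had all of them higher at 85 days, 294 all lower and 187 both. Over all genes 2485 were called at least 2-fold higher and 3889 lower, so unrelated genes would also often share a direction. How often they would was not tested. The clusters with both directions hold 473 of the 6374 genes changed at least 2-fold. Clusters with 2 or more tested genes held 35.9% of the genes changed at least 2-fold and 37.97% of all genes tested. Whether reads were divided among the members of a cluster was not tested.

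The summed FPKM was lower in ripe fruit, at 854060 ± 33053 against 1105713 ± 99632 in young fruit (SD, n = 3 each; exact permutation test, p = 0.1, the smallest possible). If the library size behind FPKM counts the fragments on the listed genes, the inverse of this sum is the mean length of the sequenced transcripts. That gives 1172 ± 46.0 bases in ripe fruit and 909 ± 78.4 in young fruit. Which library size the authors used is not given in the sources used here.

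A pair of the 100 leading genes of ripe fruit was not tested, with at least 1 FPKM in fewer than 3 of the 6 libraries. The gene of rank 84 had 0, 85.7 and 2722 FPKM in the ripe libraries and 0 in each young library, and the gene of rank 91 had 0, 979 and 1707 FPKM in the ripe libraries and 0 in each young library. In the DK libraries they were at 0, 0 and 2142 FPKM and at 9702, 156 and 1576 FPKM.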
